A study of Mus musculus with 21 samples.

Results

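Oxidative phosphorylation is the process by which mitochondria make ATP, and most of the proteins that carry it out are encoded by genes in the nucleus. The genes described here are the nuclear subunit genes of that machinery in mouse Paneth cells, the granule-filled epithelial cells at the base of small intestinal crypts that secrete α-defensins and lysozyme. They were chosen by symbol: protein-coding genes named Nduf followed by a, b, c, s or v and a number, Sdha to Sdhd, the Uqcr genes, Cyc1, Cycs, the Cox4i to Cox8 genes and all genes beginning with Atp5. Of 91 such genes, 82 had at least 10 counts in at least 3 libraries, out of 12094 protein-coding genes that met that limit and 55414 gene identifiers in the table. They comprised 36 genes of complex I, 4 of complex II, 9 of complex III, the cytochrome c gene Cycs, 14 of complex IV and 18 of complex V. Ndufa4 was placed in complex IV, where its protein is now assigned.

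Complexes I and II pass electrons from NADH and succinate to ubiquinone, complex III passes them on to cytochrome c, and complex IV hands them to oxygen. Complexes I, III and IV pump protons across the inner mitochondrial membrane, and complex V, the ATP synthase, uses the gradient to make ATP. A small set of core subunits of complexes I, III, IV and V is encoded by mitochondrial DNA, so that every such complex is assembled from products of both genomes. Secretory cells with a heavy load of protein synthesis, such as Paneth cells, need ATP for folding and export of their products.

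RNA-seq was run in bulk on 21 libraries, each of FACS-purified Paneth cells of the small intestine. The study describes C57BL/6J mice and samples of sorted cells from individual mice, and neither ages nor the sex of each library's donors were given in the sources used here. All mice drank either Milli-Q water or water with ZnSO4, labelled as 200 mM, for 7 weeks. In the specific pathogen free (SPF) context there were 3 Milli-Q and 3 zinc libraries from mice with a normal microbiota. In the antibiotics context SPF mice also received broad-spectrum antibiotics for the last 3 weeks, with 4 Milli-Q and 4 zinc libraries. In the germ-free context there were 3 Milli-Q and 4 zinc libraries. The labels do not tie each library to a mouse, so p-values measure the spread between libraries, which are separate mice if the study's general description holds for all of them. A measured difference in a bulk library cannot tell a change in RNA per cell from a change in which cells were sorted.

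Libraries held 9888174 to 16896714 counts (median 12936001). The α-defensin (Defa) genes took 24.1% to 36.4% of counts in SPF and antibiotics libraries and 39.3% to 44.5% in germ-free libraries, so the scaling of libraries bears on every comparison with germ-free mice. SPF zinc replicate 1 held 6228 counts of Xist, against at most 34 in any other library. Germ-free zinc replicates 1 and 4 lay at 79.4 and -15.8 on the first principal component, apart from the other 2 libraries of that group at 33.1 and 37.3. Paneth cell markers were abundant in every library. Marker sums are given as CPM (counts per 1000000), scaled by TMM factors that are explained further on. Summed goblet cell markers held 2700 to 7850 CPM, stem and cycling cell markers 2340 to 5400 CPM and enterocyte markers 495 to 2180 CPM. Enteroendocrine markers held 59.8 to 212 CPM and tuft cell markers 85.8 to 301 CPM. Summed immune markers reached at most 19.4 CPM and summed stromal markers at most 2.87 CPM, with Col1a2 and Col3a1 at 0.

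The promoters of some of these genes show the letters that nuclear regulators of respiration recognise. RefSeq promoter windows (GRCm38.p6, 250 bases before to 50 bases after the start) could be matched for 67 of the 82 genes. On either strand, the NRF1 core GCGCATGCG was found in 9 of 67 windows (13.4%, against 2.61% of 17492 protein-coding genes), the ETS core CCGGAAG in 16 (23.9% against 12.9%) and the YY1 core AAGATGGCG in 7 (10.4% against 2.14%). CCAAT was found in 29 (43.3% against 42.3%). The NRF1 core overlaps its own reverse complement, so that a site can match on both strands, and the ETS core ends with the letters AAG with which the YY1 core begins, so that their sites can overlap. The 5 stretches shown are those of members whose values are described further on or, for Atp5pf, of one whose gene overlaps that of an ETS factor subunit. The capitals mark the motif or, in Cycs, Ndufb6 and Sdhd, its reverse complement, and all are written 5′ to 3′ on the strand of the gene. 
Cycs, NRF1 core, chr6:50566601-50566651, minus strand: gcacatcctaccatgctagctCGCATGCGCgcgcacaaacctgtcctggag
Ndufa11, NRF1 core, chr17:56717681-56717731, plus strand: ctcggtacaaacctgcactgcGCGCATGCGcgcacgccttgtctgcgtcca
Ndufb6, ETS core, chr4:40279626-40279671, minus strand: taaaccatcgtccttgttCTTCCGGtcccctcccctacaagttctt
Sdhd, ETS core, chr9:50603868-50603916, minus strand: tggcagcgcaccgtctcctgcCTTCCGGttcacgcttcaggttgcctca
Atp5pf, YY1 core, chr16:84835035-84835085, minus strand: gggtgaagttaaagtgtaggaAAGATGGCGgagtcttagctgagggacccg
In Cycs the motif ended 52 bases before the start, in Sdhd 39 bases and in Ndufb6 225 bases. A match of letters is a description of the sequence and does not show that a factor was bound. Of the 23 genes with a window that were higher with zinc under antibiotics, described further on, 1 held the NRF1 core, 3 the ETS core and 2 the YY1 core, against 8, 13 and 5 of the other 44.

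Levels were compared between genes as TPM, which are counts divided by the median length of the gene's annotated transcripts and scaled to 1000000 over protein-coding genes. The highest medians over the 21 libraries were those of 3 genes. Atp5f1e, the epsilon subunit of the ATP synthase, had a median of 437 TPM (243 to 679), Cox4i1, the common isoform of complex IV subunit 4, 394 TPM (195 to 722), and Atp5f1b, the catalytic beta subunit of the ATP synthase, 374 TPM (174 to 652). Their ranges overlapped throughout. At the other end stood Atp5mg at 6.14 TPM (1.41 to 15.2), Cycs at 5.5 TPM (1.92 to 12.8) and Cox6b2, known as a testis isoform of complex IV subunit 6B, at 3.42 TPM (0.875 to 7.65). The length used matters for such an order, since with the longest annotated transcript Atp5f1e came to 127 TPM and Atp5f1b to 359 TPM. Reads shared between gene copies matter too, because 5 members had under 50% of their 60-base stretches to themselves (Atp5mc2, Atp5mc1, Ndufb8, Cox7c and Atp5mg), while 66 had over 90%.

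**Figure D1:**
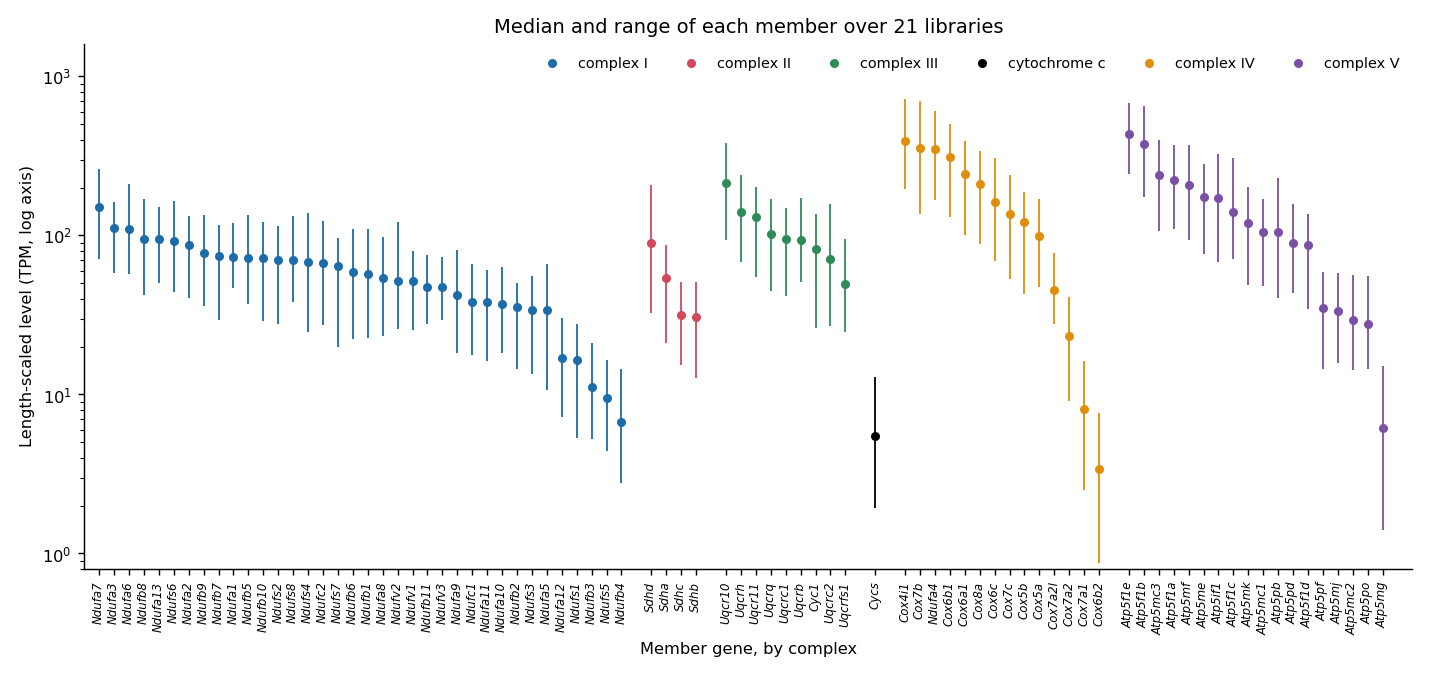
Length-scaled level (TPM, log axis) of each of the 82 members, ordered within its complex. Points are medians over 21 libraries and lines run from the lowest to the highest library. Most complex IV and complex V genes lie above 100 TPM, and Cycs, Cox6b2, Cox7a1, Atp5mg, Ndufb4 and Ndufs5 lie below 10 TPM.

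Where complex IV subunits come in several isoforms, the Paneth cell libraries held the common form and little of the tissue-specific form. Cox6a1 had a median of 243 TPM, and its muscle and heart counterpart Cox6a2 never exceeded 2 counts in a library. Cox8a had 210 TPM against at most 6 counts of Cox8b and 0 counts of Cox8c. Cox7b stood at 357 TPM with 0 counts of Cox7b2, and Cox4i1 at 394 TPM with 0 counts of Cox4i2, the form associated with low oxygen. Ndufa4 had 351 TPM and its relative Ndufa4l2 at most 8 counts. Cox7a1, otherwise known from heart and muscle, was present at 8.12 TPM, below Cox7a2 at 23.4 TPM and Cox7a2l, a factor of respiratory supercomplexes, at 45.4 TPM. The order of the last pair turns with the length used, since by the longest transcript Cox7a2 came to 26.1 TPM and Cox7a2l to 16.8 TPM. The median length of Cox7a2 (5010.5 bases) is far above that of its canonical transcript (814 bases). Its gap to Cox7a1, whose canonical transcript has 441 bases, is therefore larger than these TPM show. Median counts over the libraries were 1810 for Cox7a2 and 60 for Cox7a1. The 9 matching genes left out for low counts were Cox4i2, Cox6a2, Cox7b2, Cox8b, Cox8c, Ndufa4l2, Ndufb11b, Cox5b-ps and a second Atp5po identifier.

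The question for each water comparison was whether zinc changed these genes, and for each context comparison whether they differed between contexts. An effect of the microbiota cannot be told apart there from other effects of antibiotics. Nor can it be told apart from other differences between germ-free and SPF mice. Values within a gene are given as CPM scaled by TMM factors, which set libraries to each other on the assumption that most genes do not differ. A gene was called higher or lower where edgeR's quasi-likelihood test gave a Benjamini-Hochberg adjusted p under 0.05 over all 13070 genes tested, all 82 members among them. Counts at an unadjusted p under 0.05 are given without the share of all genes at that limit. Overlap of groups was looked at gene by gene for members only, so no share over all genes stands beside it.

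In SPF mice no member was called with zinc. Of the 82, 2 had an unadjusted p under 0.05 and DESeq2 also called 0, while 0.138% of all genes tested were called. The median log2 fold change of the members was -0.10, against -0.02 over all genes, and 19 of 82 were above 0. Cytochrome c (Cycs), the mobile electron carrier between complexes III and IV, lay at 22.4, 25.9 and 20.1 CPM on Milli-Q water and 17.3, 21.8 and 19.6 CPM on zinc. Enterocyte markers moved between these groups, with summed levels of 495 to 826 CPM on Milli-Q water and 1110 to 1880 CPM on zinc and 1 of 12 called higher, and their part in the member values was not tested. The count of called members was 0 in each fit that left out a library, SPF zinc replicate 1 with its Xist counts included.

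Under antibiotics 30 members were higher with zinc and 1 was lower, where 10.2% of all genes tested were higher and 11.5% lower. The median log2 fold change was 0.32 over the members and 0.01 over all genes tested, and 78 of 82 members were above 0. Counted by complex, the higher members were 12 of 36 in complex I, 2 of 4 in complex II, 3 of 9 in complex III, Cycs, 5 of 14 in complex IV and 7 of 18 in complex V. The medians of complexes I to V lay between 0.30 and 0.36, so that no complex stood out by its median.

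The largest rise was in Cycs (ENSMUSG00000063694). Its values were 19.8, 15.5, 15 and 21.7 CPM on Milli-Q water and 31.7, 27.9, 30.8 and 36.3 CPM on zinc. The lowest zinc library exceeded the highest Milli-Q library, and the log2 fold change was 0.82 ± 0.17 (SE; adjusted p = 0.00331, edgeR). Atp5pb, the peripheral stalk subunit b of the ATP synthase, rose from 124, 110, 135 and 163 CPM to 221, 176, 192 and 265 CPM, by 0.68 ± 0.15 log2 units (SE; adjusted p = 0.00409, edgeR). The groups did not overlap for this gene either.

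In complex I the rise was seen in subunits of the electron input module and of the membrane arm. Ndufv2, which carries an iron-sulfur cluster in the input module, lay at 73.5, 72.4, 85.6 and 96.2 CPM on Milli-Q water and at 125, 107, 121 and 167 CPM on zinc (log2 fold change 0.66 ± 0.16 SE, adjusted p = 0.00607, edgeR). Ndufb6, an accessory subunit of the membrane arm, lay at 34.4, 30.6, 36.6 and 39.5 CPM and then at 52.7, 51.9, 54.8 and 63.9 CPM (0.66 ± 0.13 SE, adjusted p = 0.00208, edgeR). Neither gene overlapped between the groups. Ndufb8, an accessory subunit of the membrane arm, rose by 0.44 ± 0.15 (SE) with overlapping groups. The core subunit Ndufs3 (0.24 ± 0.12 SE) and the accessory subunit Ndufa11 were not called. The core subunits Ndufv1 and Ndufs1, which bind flavin and iron-sulfur clusters, were not called, with log2 fold changes of 0.11 ± 0.13 and 0.30 ± 0.12 (SE), although the libraries of Ndufs1 did not overlap.

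In complex II, Sdhd, a membrane anchor, rose from 103, 93.0, 117 and 149 CPM to 201, 142, 148 and 230 CPM, and the groups overlapped (log2 fold change 0.64 ± 0.19 SE, adjusted p = 0.0201, edgeR). The anchor Sdhc rose by 0.38 ± 0.11 (SE), while the catalytic subunits Sdha and Sdhb had log2 fold changes of 0.11 ± 0.11 and 0.31 ± 0.12 (SE) and were not called. Among complex III genes Uqcrfs1, the Rieske iron-sulfur protein, rose by 0.49 ± 0.12 and the core protein Uqcrc2 by 0.57 ± 0.16 (SE). Cyc1, the cytochrome c1 gene, had a value of 0.32 ± 0.14 (SE) and was not called, nor were Uqcrc1 (0.25 ± 0.12 SE) and Uqcrq (0.40 ± 0.15 SE).

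Complex IV held the member that fell. Cox6b2 lay at 2.40, 2.69, 1.78 and 2.48 CPM on Milli-Q water and at 0.928, 1.08, 1.68 and 1.5 CPM on zinc, without overlap (log2 fold change -0.85 ± 0.30 SE, adjusted p = 0.0429, edgeR). This was a low level, and its common counterpart Cox6b1 rose by 0.37 ± 0.12 (SE) at 146 to 177 CPM on Milli-Q water and 182 to 232 CPM on zinc. Cox7b, Cox7a2, Cox5a and Cox7c also rose. Cox4i1 (0.26 ± 0.16 SE), Cox8a (0.10 ± 0.13 SE) and Cox6a1 (0.04 ± 0.11 SE) were not called. Ndufa4 (0.37 ± 0.14 SE), Cox6c (0.20 ± 0.15 SE) and the low isoform Cox7a1 (0.77 ± 0.30 SE) were not called either, each with overlapping groups. In complex V the genes of the alpha, beta and gamma subunits rose, Atp5f1a by 0.35 ± 0.11, Atp5f1b by 0.41 ± 0.12 and Atp5f1c by 0.53 ± 0.14 (SE). The rotor ring gene Atp5mc3 rose too. The other ring genes Atp5mc1 (0.21 ± 0.13 SE) and Atp5mc2 (0.26 ± 0.15 SE) and the inhibitor Atp5if1 (0.32 ± 0.16 SE) were not called. As TPM, the delta subunit gene Atp5f1d lay at 136, 103, 82.1 and 110 on Milli-Q water and 87.5, 96.5, 86.6 and 91.0 on zinc. The epsilon subunit gene Atp5f1e lay at 533, 424, 454 and 559 TPM and then at 416, 587, 538 and 679 TPM. Both genes overlapped between the groups by this measure.

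**Figure D2:**
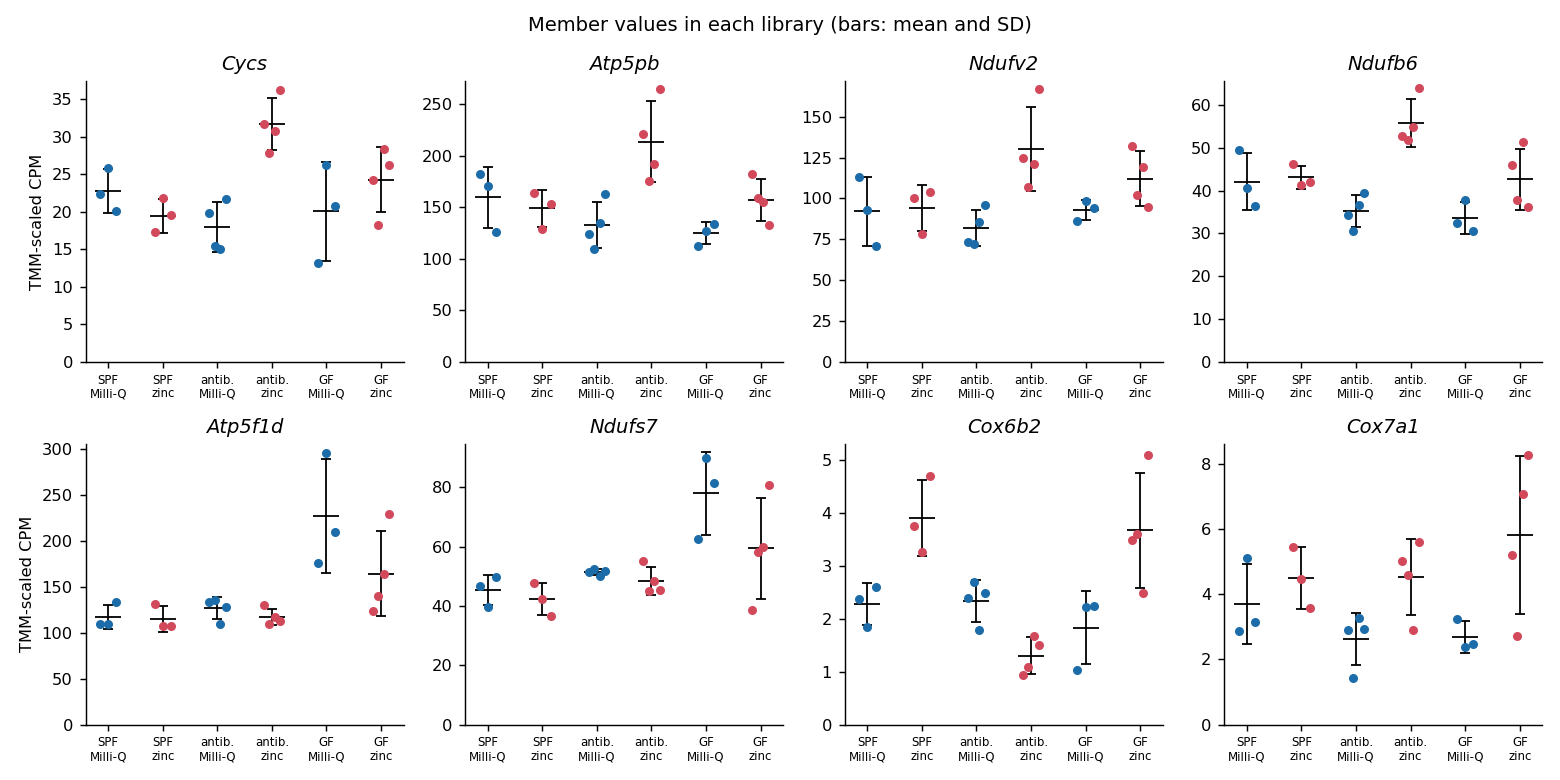
TMM-scaled CPM of 8 members in each library, by context and water (blue, Milli-Q; red, zinc; GF, germ-free). Points are libraries and bars are the mean and SD of each group. Cycs, Atp5pb, Ndufv2 and Ndufb6 lie higher in antibiotics zinc libraries than in antibiotics Milli-Q libraries, and Cox6b2 lies lower.

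The count of called members depended on single libraries. Without antibiotics zinc replicate 4 it was 9, and without antibiotics Milli-Q replicate 2 it was 12. Without Milli-Q replicate 3, Milli-Q replicate 1 or zinc replicate 1 it was 15, 18 and 18. Those called in each of the 8 fits that left out a library were Atp5f1c, Atp5mk, Atp5pb, Cycs, Ndufb6, Ndufc2, Ndufv2 and Uqcrfs1. Summed over all members, the 4 Milli-Q libraries held 7120 to 8910 CPM and the 4 zinc libraries 8840 to 11500 CPM, with zinc replicate 4 the highest. When libraries were scaled by their totals alone, which moved the all-gene median of log2 fold changes to -0.15 and of the members to 0.16, 3 members were higher and 1 was lower.

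GC content moved with these fold changes. Across the 82 members the log2 fold change with zinc under antibiotics had a Spearman correlation of -0.57 with the GC content of the transcript, and across 13045 genes tested it was -0.40, both descriptions across genes of the same libraries. The 30 higher members had a median GC content of 48.5% and the 51 members not called 53.9%. When libraries were corrected for GC content and transcript length, 58 members were higher and 0 were lower, of which 25 were also called without the correction. The median log2 fold change was then 0.43 over the members and 0.08 over all genes tested. The shares of all genes called that are given above belong to the fit without the correction. Those of the corrected fit are not given, so its count of members cannot be set against them. Restricting the list to the 66 members with over 90% of their 60-base stretches unique left 24 higher and 1 lower.

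**Figure D3:**
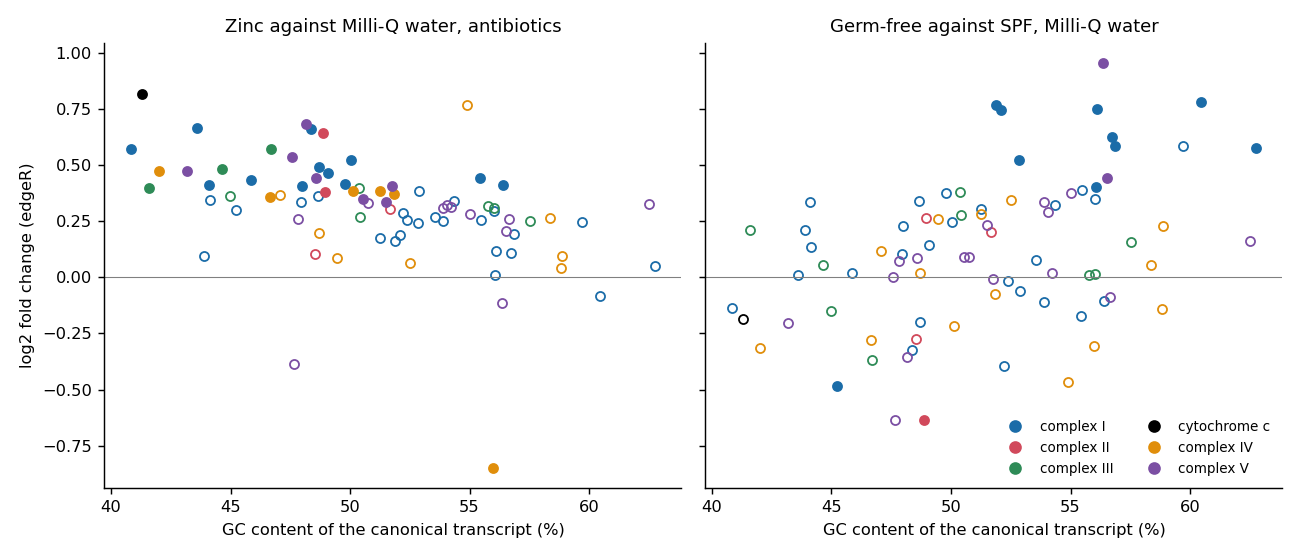
log2 fold change of each member against the GC content of its canonical transcript, for zinc under antibiotics (left) and germ-free against SPF mice on Milli-Q water (right). Filled points have an adjusted p under 0.05. Higher members sit at lower GC content on the left (median 48.5%) and at higher GC content on the right (median 56.4%).

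Summed cell type markers overlapped between these 2 groups, and some single markers were called, where 10.2% of all genes tested were higher and 11.5% lower. Summed enterocyte markers were 522 to 565 CPM on Milli-Q water and 520 to 678 CPM on zinc under antibiotics, with 1 of 12 called higher. Goblet cell markers were 4980 to 6090 CPM and 5080 to 7850 CPM, and stem and cycling cell markers 3150 to 4020 CPM and 3020 to 4330 CPM, of which 3 of 8 were called higher and 1 lower. Of goblet cell and enteroendocrine markers 1 of 8 each was higher, and 1 of 7 tuft cell markers tested, 1 of 2 immune markers tested and 1 of 12 Paneth cell markers were lower. Their part in the member values was not tested.

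The proteins that serve the same machinery were measured from lists of other genes. With zinc under antibiotics, 7 of 17 genes of the citric acid cycle and pyruvate dehydrogenase were higher and 0 lower, among them fumarase (Fh1, log2 fold change 0.60 ± 0.13 SE), Dld (0.57 ± 0.15 SE) and citrate synthase (Cs, 0.37 ± 0.11 SE). Of complex IV assembly factors 7 of 24 tested were higher and 1 lower. The lower gene was Cox17, a copper chaperone, at -1.04 ± 0.26 (SE), and the higher genes included Taco1, a translational activator of the mitochondrial Cox1 mRNA, at 0.63 ± 0.15 (SE). Complex I assembly factors had 4 higher and 1 lower of 17, with Ndufaf4 at 0.85 ± 0.16 and Dmac2 at -0.67 ± 0.13 (SE). For complexes II, III and V, 2 of 4, 1 of 9 and 2 of 6 assembly factors were higher and 0 lower. Among carriers and channels 2 of 7 were higher, the ADP/ATP carrier Slc25a5 (0.62 ± 0.16 SE) and Vdac2 (0.34 ± 0.11 SE). Of 15 regulators of mitochondrial biogenesis 2 were higher, the ETS factor subunit Gabpa (0.47 ± 0.15 SE) and the mitochondrial DNA packaging factor Tfam (0.41 ± 0.13 SE), and the list's median was -0.06. Gabpa overlaps Atp5pf on the opposite strand, so their counts can share reads if strand was not used.

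Subunits encoded by mitochondrial DNA could be tested for 7 of 13 genes, and 5 of these were higher with zinc under antibiotics and 0 lower. They included mt-Nd5 (0.88 ± 0.24 SE) and mt-Co1 (0.74 ± 0.25 SE), core subunits of complexes I and IV. The other 6 of the 13 (mt-Co2, mt-Co3, mt-Atp6, mt-Atp8, mt-Nd3 and mt-Nd4l) were listed at 0 or close to 0 in every library, although cells express them, so that sums of this list rest on 7 genes. In these sums the antibiotics Milli-Q libraries held 17500, 14300, 16000 and 16000 CPM and the zinc libraries 17000, 27100, 31200 and 28000 CPM. Zinc replicate 1 thus lay within the Milli-Q range, although the nuclear members summed to 9830 CPM in it, above all 4 Milli-Q libraries.

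Whether zinc acted differently under antibiotics than in SPF mice was tested as the difference of the 2 zinc effects. No member was called by edgeR, against 0.0% of all genes tested. Of the 82, 37 had an unadjusted p under 0.05, and DESeq2 called 4. The share of all genes at that unadjusted limit is not given, so the 37 cannot be set against it. The median of the differences was 0.40 over the members and 0.01 over all genes, and 78 of 82 were above 0. Cycs differed by 1.04 ± 0.26 log2 units (SE; adjusted p = 0.107, edgeR), Atp5pb by 0.79 ± 0.23 (SE; adjusted p = 0.116, edgeR) and Cox6b2 by -1.62 ± 0.44 (SE; adjusted p = 0.115, edgeR). Cox6b2 had opposite signs in these contexts, since the SPF libraries held 2.38, 1.84 and 2.61 CPM with Milli-Q and 3.75, 3.27 and 4.69 CPM with zinc, groups that did not overlap though the comparison was not called (0.78 ± 0.32 SE, adjusted p = 0.842, edgeR).

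**Figure D4:**
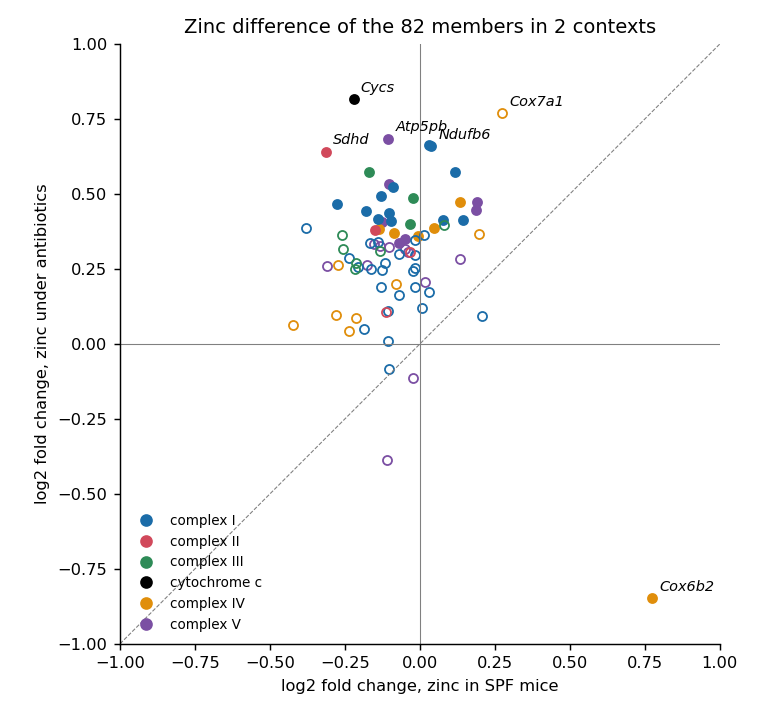
log2 fold change of the 82 members with zinc in SPF mice (horizontal) and under antibiotics (vertical), coloured by complex. Filled points have an adjusted p under 0.05 under antibiotics, and the dashed line marks equal values. Most members lie above the dashed line, 78 of 82 above 0 on the vertical axis and 19 of 82 above 0 on the horizontal axis, and Cox6b2 lies alone at the lower right.

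In germ-free mice 3 members were higher with zinc and 0 lower, where 5.88% of all genes tested were higher and 5.47% lower. The members' median was 0.05 on the log2 scale (all genes -0.02). The 3 were Cox7a1, Cox7b and Atp5mk, a small subunit of the ATP synthase dimer. Cox7a1 lay at 3.24, 2.37 and 2.46 CPM on Milli-Q water and 5.22, 2.73, 7.07 and 8.28 CPM on zinc, so that the groups overlapped (log2 fold change 1.12 ± 0.37 SE, adjusted p = 0.0492, edgeR). Cox7b lay at 159, 179 and 155 CPM and at 271, 203, 286 and 197 CPM without overlap (0.54 ± 0.17 SE, adjusted p = 0.0385, edgeR). The count was 0 in the fits without Milli-Q replicate 2 or 3 or without zinc replicate 1 or 3. Without Milli-Q replicate 1 it was 3, all lower, and without zinc replicate 4 it was 15, with 7 higher and 8 lower. That library stood apart from its group on the first principal component, and the 8 that were lower without it included Atp5f1d and Ndufs7.

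The other lists in germ-free mice with zinc gave 5 of 7 tested mitochondrial DNA genes higher, with mt-Co1 at 1.10 ± 0.28 (SE), and 4 of 15 biogenesis regulators higher. Ppargc1a, the coactivator PGC-1α, was at 1.37 ± 0.32, Gabpa at 0.73 ± 0.18, Gabpb2 at 0.59 ± 0.16 and Tfb1m at 0.76 ± 0.25 (SE). In the remaining lists 1 of 17 citric acid cycle genes and 2 of 24 complex IV assembly factors were higher and 0 lower. No call was made by edgeR among 17 complex I assembly factors (median log2 fold change -0.15, 5 at an unadjusted p under 0.05), those of complexes II, III and V (1 each at an unadjusted p under 0.05) or 7 carriers and channels (2 at an unadjusted p under 0.05). Of the cell type markers, 2 of 12 for enterocytes and 1 of 8 for stem and cycling cells were higher. Summed goblet cell markers were 5240 to 6760 CPM on Milli-Q water and 3950 to 5190 CPM on zinc, without overlap, though 0 of 8 were called by edgeR (4 at an unadjusted p under 0.05). Their part in the member values was not tested. The summed mitochondrial DNA genes were 17900, 8950 and 10400 CPM on Milli-Q water and 23400, 24700, 34100 and 13900 CPM on zinc, where the lowest zinc value, of replicate 4, lay inside the Milli-Q range. No member differed in its zinc effect between germ-free and SPF mice (0.0% of all genes tested, 5 members at an unadjusted p under 0.05, 0 by DESeq2) or between germ-free mice and antibiotics (0.207% of all genes tested, 18 members at an unadjusted p under 0.05, 1 by DESeq2). For both differences the share of all genes at the unadjusted limit is not given, so the member counts cannot be set against it. The median of the difference between germ-free mice and antibiotics was -0.30 over the members and 0.01 over all genes, with 9 of 82 members above 0. The member that DESeq2 called was Cox6b2, whose zinc effect was 1.89 ± 0.47 log2 units (SE) larger in germ-free mice. Comparisons of zinc effects with antibiotics share the antibiotics libraries.

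Antibiotics on Milli-Q water gave 0 called members by edgeR (0.199% of all genes tested) and by DESeq2, with 0 members at an unadjusted p under 0.05, at a median log2 fold change of -0.10 (all genes -0.01). On zinc water 9 were higher with antibiotics than in SPF mice and 1 was lower, where 4.76% of all genes tested were higher and 4.21% lower. The median was 0.29 (all genes -0.00) and 79 of 82 were above 0. Cycs lay at 17.3, 21.8 and 19.6 CPM in SPF mice on zinc against 31.7, 27.9, 30.8 and 36.3 CPM with antibiotics (log2 fold change 0.69 ± 0.19 SE, adjusted p = 0.0269, edgeR), and Ndufa12, an accessory subunit of complex I, was higher by 0.55 ± 0.15 (SE). The lower gene was Cox6b2 at -1.59 ± 0.31 (SE; adjusted p = 0.00491, edgeR). These are the same zinc libraries as in the zinc comparisons above, so the values are not a second measurement. In the fits without any of the SPF zinc libraries, or without antibiotics zinc replicate 1 or 4, Cox6b2 was the 1 member called. Of the other lists, 6 of 17 citric acid cycle genes and 2 of 17 complex I assembly factors were higher with antibiotics and 0 lower. Assembly factors of complex II had 2 of 4 higher, those of complex IV 1 of 24 higher and 1 lower, and those of complex V 1 of 6 higher, and 1 of 7 carriers and channels and 1 of 15 biogenesis regulators were higher. For complex III assembly factors edgeR called 0 of 9 (2 at an unadjusted p under 0.05), and it called 0 of 7 mitochondrial DNA genes tested (0 at an unadjusted p under 0.05). Enterocyte markers moved in this pair of groups, with 10 of 12 lower under antibiotics and summed levels of 1110 to 1880 CPM against 520 to 678 CPM, and 5 of 8 goblet cell markers were higher. Of enteroendocrine and of stem and cycling cell markers 1 of 8 each was higher, and 1 of 12 Paneth cell markers was lower. Their part was not tested.

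Germ-free mice on Milli-Q water had 11 members higher than SPF mice and 2 lower by TMM scaling, where 12.7% of all genes tested were higher and 11.6% lower, but by library totals 0 were higher and 72 lower. That scaling moved the all-gene median of log2 fold changes to -0.99 and of the members to -0.85. Directions upward thus hold only by scalings such as TMM, which assume that most genes do not differ. As TPM without Defa genes, summed complex I members were lower, at 4360 to 5510 in germ-free against 6420 to 6860 in SPF libraries. All members summed to 15900 to 19600 against 25400 to 27600 TPM. By TMM scaling, 9 of the 11 higher members were of complex I and the other 2 were of complex V. The median of complex I was 0.24, against -0.03 for complex IV and 0.06 for complex III.

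Atp5f1d, the delta subunit of the ATP synthase's central stalk, lay at 109, 110 and 133 CPM in SPF mice and at 176, 296 and 210 CPM in germ-free mice, without overlap by TMM scaling (log2 fold change 0.96 ± 0.19 SE, adjusted p = 0.00121, edgeR; -0.01 by library totals). Ndufs7, the complex I subunit with the last iron-sulfur cluster before ubiquinone, lay at 46.6, 39.8 and 49.6 CPM and at 62.5, 89.9 and 81.4 CPM (0.78 ± 0.18 SE, adjusted p = 0.00352, edgeR; -0.18 by library totals). Ndufa10, Ndufa2, Ndufv3, Ndufv1, Ndufs3, Ndufa11, Ndufa13 and Ndufb11, which are core or accessory subunits of complex I, and the ring gene Atp5mc1 were the other higher members by TMM scaling. Lower were Ndufs1, the largest core subunit of the input module, from 60.4, 66.2 and 52.7 CPM to 43.1, 37.9 and 47.0 CPM (-0.48 ± 0.14 SE, adjusted p = 0.0149, edgeR), and Sdhd (-0.64 ± 0.22 SE, adjusted p = 0.0382, edgeR), whose groups overlapped. Ndufs1 overlaps Eef1b2 on the opposite strand, a gene with over 10 times its counts, and Sdhd overlaps Timm8b.

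Here too GC content moved with the fold change, in the other direction. The Spearman correlation across members was 0.41 (0.35 across all genes), and the 11 higher members had a median GC content of 56.4% against 50.4% for the 69 not called. After the correction for GC content and length 7 members were higher and 2 lower, with the share of all genes called in that fit not given. Of these 9, 7 were among the 13 called without it. Those still higher were Atp5f1d, Ndufa10, Ndufa2, Ndufs3, Ndufs7 and Ndufv3, and Sdhd was still lower. Calls kept in each fit that left out a library were those of Atp5f1d, Ndufa10, Ndufa2, Ndufs7, Ndufv1 and Ndufv3, while without germ-free replicate 2 the count fell to 6 and without SPF replicate 2 to 8. Among the other lists by TMM scaling, 4 of 15 biogenesis regulators were lower and 0 higher, with Ppargc1a at -1.39 ± 0.33 and Gabpb2 at -1.05 ± 0.16 (SE), and of 7 mitochondrial DNA genes tested mt-Nd5 was lower (-0.99 ± 0.28 SE). In the remaining lists by TMM scaling, 3 of 24 complex IV assembly factors were higher and 2 lower, 2 of 7 carriers and channels were higher, 1 of 17 citric acid cycle genes was higher and 1 lower, 1 of 4 and 1 of 9 assembly factors of complexes II and III were higher, and 1 of 17 and 1 of 6 of complexes I and V were lower. Of the marker lists, 10 of 12 Paneth cell markers were higher and 1 lower, 5 of 8 enteroendocrine markers were lower and 1 higher, and 3 of 8 stem and cycling cell markers were lower and 1 higher. Of goblet cell markers 2 of 8 were lower and 1 higher, of tuft cell markers 3 of 7 tested were lower, and of enterocyte markers 1 of 12 was higher and 1 lower. Their part in the member values was not tested.

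On zinc water, TMM scaling put 5 members higher in the germ-free libraries than in the SPF libraries and 0 lower, where 3.47% of all genes tested were higher and 2.38% lower, but by library totals 0 were higher and 23 lower, with the median of all genes at -0.61. The 5 were Cox7a2l (log2 fold change 0.68 ± 0.17 SE), Ndufa1 (0.68 ± 0.16 SE), Ndufv3, Ndufb11 and Sdhc. Their groups did not overlap, but they had been called on these same values. Cox7a2l lay at 59.1, 41.4 and 61.7 CPM in SPF mice and at 92.9, 87.3, 84.8 and 82.2 CPM in germ-free mice. The other 4 groups spanned 57.6 to 97.3 CPM, so that 1 of the 3 SPF zinc libraries lay below every other library. Cox7a2l, with 57.9% of its 60-base stretches unique, overlaps Eml4 on the opposite strand (20524 counts in total against 21265 of its own). Ndufb11 likewise overlaps Rbm10 (13105 against 23407). Such genes can share reads if strand was not used. Among SPF zinc libraries, leaving out replicate 2 gave a count of 0, replicate 3 a count of 1 and replicate 1 a count of 5. Without germ-free zinc replicate 1 the count was 4 and without replicate 4 it was 7. Of the pathway lists, 2 of 24 complex IV assembly factors were higher by TMM scaling, and edgeR made no call in the others, in which 0 to 6 genes of a list had an unadjusted p under 0.05. By TMM scaling 6 of 12 Paneth cell markers were higher and 1 lower, with sums of 335000 to 393000 CPM in SPF and 517000 to 915000 CPM in germ-free zinc libraries, which did not overlap. Those sums are not shares of counts, since TMM factors were 0.5226 to 0.8339 in germ-free and 0.9965 to 1.1676 in SPF zinc libraries. A lower factor gives a higher CPM. Of goblet cell markers 2 of 8 were higher, of stem and cycling cell markers 2 of 8 were lower, of enterocyte markers 1 of 12 and of tuft cell markers 1 of 7 tested were lower, and of enteroendocrine markers 1 of 8 was higher and 1 lower. Summed enterocyte markers were 1110 to 1880 CPM in SPF and 689 to 2180 CPM in germ-free zinc libraries. The part of these markers in the member values was not tested.

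**Figure D5:**
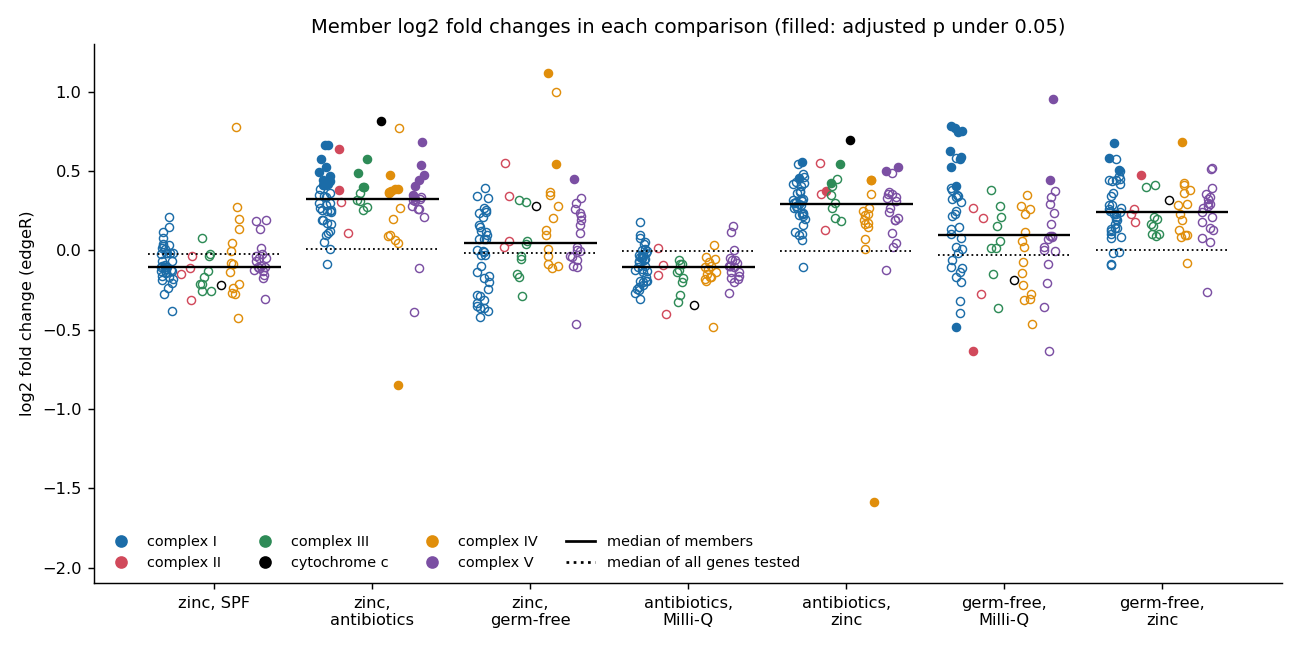
log2 fold change of each member in the 7 comparisons of 2 groups, by TMM scaling, coloured by complex, with filled points where the adjusted p was under 0.05. Solid lines are medians of the members and dotted lines medians of all genes tested. The members' median lies at 0.32 for zinc under antibiotics and at -0.10 for zinc in SPF mice.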

How the data were processed

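Raw counts for Ensembl genes in 21 libraries, with no normalization, were deposited by the authors in 1 table. Per the labels the mRNA libraries were stranded. The submitters' processing notes name FastQC 0.12.0, STAR 2.7.0a, DESeq2 and the mm39 build. Which tool counted reads, whether it used strand and what it did with multi-mapped reads were not given in the sources used here. Of 55414 identifiers, 54749 matched GENCODE M39 (0.0164% of counts did not match), and 0 columns were left unmatched.

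Counts were tested with edgeR 4.0.16 (R 4.3.3, limma 3.58.1) by quasi-likelihood F-tests in a single fit of 6 groups with TMM factors and filterByExpr (13070 genes, common dispersion 0.0369). Adjustment (Benjamini-Hochberg) ran over all genes tested in each comparison. The tests were also run on counts simulated at the common dispersion with 2-fold and 4-fold changes. Of the 2-fold changes 90% were recovered for zinc under antibiotics and 72% for germ-free on Milli-Q water. Smaller changes, which most calls here are, were not simulated, so this run does not bear on them. Alternatives were RLE size factors, library totals, TMM without Defa genes, DESeq2 1.42.0, no low count filter, spline offsets for GC content and length, only the groups compared, a replicate term, and leaving out each library. The list limited to unique members and a replicate term by column number were added after seeing the data. TPM used the median annotated transcript length in place of the longest, which had been planned as the main length, because the longest annotated isoform lowered the values of several short genes.

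The members, gene lists, motifs and tests were chosen with earlier results of these data known. The rule for named genes took, per comparison, the 2 largest rises and 2 largest falls among called members, the 3 highest and 3 lowest by TPM, and a fixed set of core subunits and isoform families. Other called members are named where a count or a leave-one-out result calls for it, and were chosen after their values were seen. Fold changes are log2 with standard errors. Overlaps of member gene bodies with other genes were taken from the annotation: in 21 of 82 an overlapping gene held over 10% of the member's counts. Figures were drawn with matplotlib 3.10.9.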

Additional observations from a re-analysis of the deposited data

Results flagged for a closer look

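In groups of 4 libraries, the gap of the highest or lowest library to the nearest of the others was compared with Dixon's 95% critical value for 129 groups of member values, and 3 passed it, where chance passes about 1 in 20. Sdha, the flavoprotein of complex II, stood at 160 CPM in germ-free zinc replicate 4, below the 195 to 199 CPM of the other 3 libraries. Cox6c stood at 150 CPM in antibiotics zinc replicate 4, above 94.5 to 99.4 CPM in the others. In the same library Cox7c stood at 113 CPM, above 84.3 to 87.9 CPM.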

How the results depend on the processing

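Counts of called members are given by setting, without the share of all genes called in each. With library totals only they were 4 for zinc under antibiotics, 5 for antibiotics on zinc water, 72 (all lower) for germ-free on Milli-Q water and 23 (all lower) for germ-free on zinc water. With DESeq2 they were 7 for zinc in germ-free mice, 18 for antibiotics on zinc water, 13 for germ-free on zinc water, 4 for the difference of zinc effects between antibiotics and SPF, and 1 for germ-free less antibiotics. With the GC content and length correction they were 58 for zinc under antibiotics, 5 for zinc in germ-free mice, 20 and 15 for antibiotics and germ-free on zinc water, and 1 for the difference between germ-free and antibiotics. With only the groups compared they were 0 for zinc in germ-free mice, 17 for antibiotics and 0 for germ-free on zinc water, and 3 for the difference between antibiotics and SPF. With no low count filter the differences of zinc effects gave 4, 1 and 1. The causes were not tested.

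Leaving out each library gave 9 to 35 for zinc under antibiotics, 0 to 15 for zinc in germ-free mice, 1 to 13 for antibiotics on zinc water, 6 to 15 and 0 to 7 for germ-free on Milli-Q and zinc water, 0 to 1 for the zinc effects of germ-free less SPF mice and 0 to 2 for germ-free less antibiotics. It gave 0 throughout for zinc in SPF mice, antibiotics on Milli-Q water and the difference between antibiotics and SPF.

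Same-numbered replicates did not deviate together (correlations of -0.17 to 0.23), so the numbers were not taken to pair libraries. A fit with a replicate block gave 30 called members for zinc under antibiotics, 15 and 5 for germ-free on Milli-Q and zinc water, 2 (both lower) for zinc in germ-free mice and 1 (Cox6b2, lower) for antibiotics on zinc water. These numbers are those of the sample titles, and the table's column names number the germ-free Milli-Q libraries 1, 3 and 4. A replicate block by column number, chosen after seeing the data, gave 30, 10 and 4 in the same order, 1 (Cox7b, higher) for zinc in germ-free mice and 1 (Cox6b2, lower) for antibiotics on zinc water, with correlations of -0.10 to 0.23.

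Over 34 calls of named genes and 9 settings, 233 of 306 values kept their direction and side of the threshold, 67 kept direction only and 6 reversed. The 6 were in germ-free against SPF mice on Milli-Q water by library totals: Ndufs3 -0.43, Atp5f1d -0.012, Ndufs7 -0.18, Atp5mc1 -0.52, Ndufa11 -0.37 and Ndufv1 -0.33. Depth limits Cox6b2 and Cox7a1, which lay under 10 CPM.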
